A study of Homo sapiens with 12 samples.

Results

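Polysomal RNA was compared with input RNA in H1299 cells depleted of EIF3G, to describe which classes of mRNA were enriched or depleted on polysomes when little EIF3G was present. The comparison takes 6 of the 12 libraries of the study. In all groups the cells were H1299, an established human non-small-cell lung cancer line, lysed 72 h after transfection. The siEIF3G groups received a mix of 2 siRNAs in equal amounts against EIF3G, and the siCtrl groups received a single control siRNA. Input is 10% of the lysate, and polysomal RNA is the polysome fraction of the rest after a sucrose gradient of 10% to 50%. There were 3 libraries each of siEIF3G polysomal, siEIF3G input, siCtrl polysomal and siCtrl input RNA, made from mRNA selected by its poly(A) tail. Depletion was transient, in a single line, and the labels do not tell whether the libraries of a group stem from different cultures. The p-values then cover the variation among these libraries, and that may be technical. Of 16172 genes in the deposited table, 10531 had a mean of at least 1 TPM (a share of the library corrected for transcript length) over the 6 siEIF3G libraries and were kept, and 5641 were set aside.

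An mRNA under active translation carries several ribosomes and sediments with the polysomes, whereas an mRNA that is stored, newly made or bound by a single ribosome stays in lighter fractions. EIF3G is an RNA-binding subunit of eIF3, the large complex that holds the small ribosomal subunit ready for the mRNA and takes part in scanning for the start codon. How many ribosomes an mRNA can carry depends on the length of its reading frame and on how often translation starts, so mRNAs with short reading frames carry few ribosomes. The siRNAs are shown because they define the groups, 5′ to 3′ as the labels give them.
siEIF3G-4: gaacaaactcaagggccagaa
siEIF3G-5: gaggtcatcaacggaaacata
siCtrl: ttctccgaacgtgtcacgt

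EIF3G itself was at 143, 132 and 69.2 TPM in siEIF3G polysomal libraries 1, 2 and 3, and at 60.7, 84.7 and 47.3 TPM in siEIF3G input. The siCtrl libraries held 1680, 1916 and 1803 TPM in polysomal and 1158, 1092 and 878 TPM in input RNA, so every siEIF3G library lay below every siCtrl library of its fraction. The EIF3G mRNA that remained had a log2 difference, polysomal minus input, of 0.80 (SE 0.29, limma adjusted p = 0.152), and the polysomal and input libraries overlapped, polysomal 3 lying below input 2. Without those 2 libraries it was 1.34 (SE 0.22, limma adjusted p = 0.0101), a call. In siCtrl cells the same difference was 0.79 (SE 0.29, limma adjusted p = 0.0487).

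Between 13934 and 14552 genes were above 0 TPM in the 6 libraries, and the read depth is unknown because TPM keep no counts. By mean Pearson correlation across genes, siEIF3G input 2 was nearer to the polysomal group (0.957) than to its own (0.928), and siEIF3G polysomal 3 was nearer to the input group (0.953) than to its own (0.948). For a named gene, the value without this pair of libraries is given where it gains or loses the call or moves by more than 1.5 times. The pair was picked for lying near the other fraction in these same values, so leaving it out favours a wider difference. A call gained without the pair is therefore not independent support. Markers of mesenchymal and of epithelial cells were both mixed. Of 27 mesenchymal and matrix genes in the table, 8 had a mean under 1 TPM, and of 13 epithelial markers 8 did. Of the first list, the filament gene VIM was at 718 to 3105 TPM and the collagen gene COL1A1 at most at 0.09 TPM. Of the epithelial list, the keratin genes KRT18 and KRT8 were at 435 to 1613 and 108 to 336 TPM. EPCAM and CDH1, also of that list, were at most at 0.10 and 0.04 TPM. Of 8 markers of lung epithelium in the table, 7 had a mean under 1 TPM, with a summed level of 1.66 to 3.06 TPM on polysomes and 1.82 to 5.79 TPM in input, so the defining markers of the labelled tissue were near 0 in this line. Of 10 markers of other cell types, 9 had a mean under 1 TPM, with sums of 1.02 to 1.74 and 2.03 to 3.82 TPM.

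As deposited, the median gene had a log2 difference of -0.49, on the log2(TPM + 1) scale, and 30.4% of genes were positive. TPM are shares, so an abundant class that takes less of the polysomal libraries lifts all others there and moves this median up. Why the median was negative as deposited was not tested. The median was 0.01 with size factors, -0.06 with quantile normalization, -0.70 with a total that leaves out ribosomal protein and MTRNR2L genes, and -0.92 without siEIF3G input 2 and polysomal 3. Class medians are therefore given relative to the median of all genes, and log2 differences of single genes as deposited. Such a difference understates the change of genes with low values.

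In the limma fit, 192 genes were higher on polysomes (1.82% of those tested) and 142 were lower (1.35%), at an adjusted p under 0.05. Together 334 genes were called, 3.17% of those tested. The polysomal libraries lay above all input libraries for 998 genes (9.48%) and below them for 1335 (12.7%), and all 334 called genes were among these. All 334 kept their sign under each alternative in which they were tested. The number called depended on scaling: size factors called 17 higher and 29 lower, quantile normalization 146 and 233, and the total without ribosomal protein and MTRNR2L genes 96 and 281. The share of calls that were higher was thus 57.5% as deposited, against 37.0%, 38.5% and 25.5%.

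The number called also depended on single libraries. It was 20 higher and 24 lower without siEIF3G polysomal 1, 39 and 37 without siEIF3G polysomal 2, 544 and 256 without siEIF3G polysomal 3, 27 and 35 without siEIF3G input 1, and 94 and 65 without siEIF3G input 3. Among the control libraries, which share in the estimate of the spread, it was 82 and 74 without siCtrl polysomal 2, 134 and 92 without siCtrl polysomal 3, 323 and 460 without siCtrl input 1, and 95 and 76 without siCtrl input 2. With any 1 of the 12 libraries left out, 43 genes kept their call every time, 19 of them higher and 24 lower. The other 291 were lost in at least 1 of these fits. Lost were 290 without siEIF3G polysomal 1, 272 without siEIF3G input 1, 258 without siEIF3G polysomal 2, 184 without siEIF3G input 3, 178 without siCtrl polysomal 2, 163 without siCtrl input 2 and 112 without siCtrl polysomal 3, and at most 53 without any of the others. For part of the single genes below, the number of these 12 fits that kept the call is given. A call without such a number is not thereby stable. PSMB7, MRPL52, ACADVL and GNG11, for example, kept theirs in 4, 5, 6 and 7 of the 12 fits. Without both siEIF3G input 2 and polysomal 3, 833 genes were higher (7.91%) and 858 lower (8.15%), among them 188 of the 192 and 134 of the 142. Since the pair was picked by these same values, the larger count describes that choice and is not a second result.

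**Figure D1:**
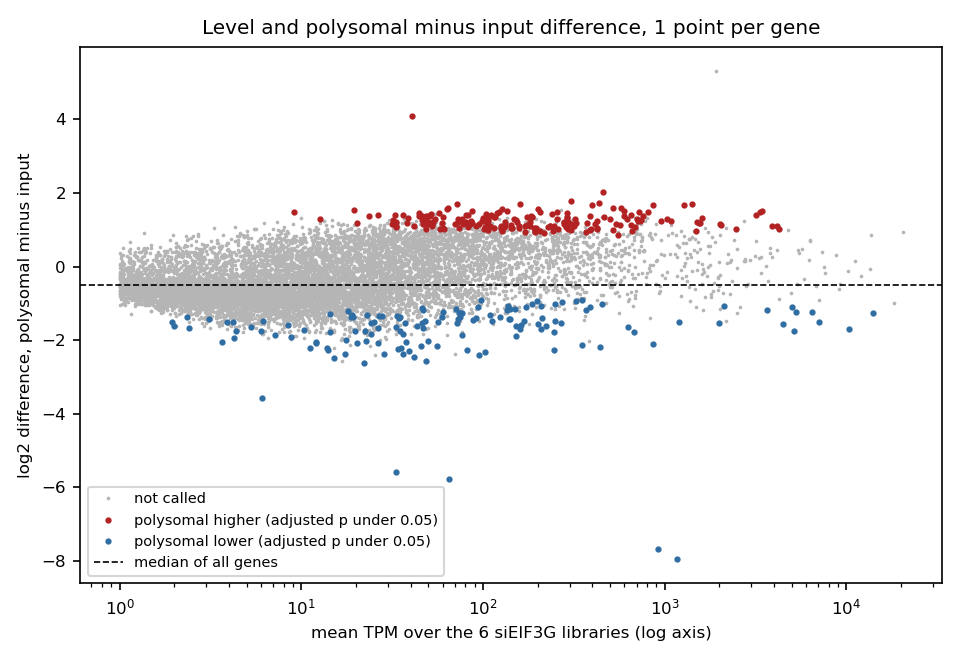
Each point is 1 of 10531 genes, with its mean TPM over the 6 siEIF3G libraries on a log axis against its log2 difference, polysomal minus input. Red points are the 192 genes called higher, blue points the 142 called lower, grey points are not called, and the dashed line is the median of all genes at -0.49. The 5 blue points at -3.58 and below are MTRNR2L genes, and the grey point above 5 is GAGE12B, which is listed at 0 in siEIF3G input 2.

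The most depleted transcripts on polysomes were the MTRNR2L genes, nuclear near copies of the mitochondrial 16S ribosomal RNA that are annotated as coding for humanin-like peptides. MTRNR2L2 was at 5.41, 10.8 and 9.10 TPM in the polysomal libraries and at 2672, 1581 and 2735 TPM in input. MTRNR2L8 was at 5.97, 8.59 and 8.87 TPM against 2117, 1218 and 2146 TPM. Every input library exceeded every polysomal library by far, also siEIF3G input 2 and polysomal 3. For these genes alone, each library thus lay with the fraction its label names, input 2 being the lowest of the input libraries. Why 2 libraries stood apart over all genes was not tested. The log2 difference was -7.95 for MTRNR2L2 (SE 0.36, limma adjusted p = 1.13e-07), -7.67 for MTRNR2L8, -5.77 for MTRNR2L9 and -5.58 for MTRNR2L1. MTRNR2L6 was listed at 0 in polysomal libraries 1 and 3 and at 0.15 TPM in library 2, against 6.98 to 14.8 TPM in input. All 5 kept genes of the 9 in the table were lower, and the summed level of the 9 was 0.00127%, 0.00213% and 0.00193% of the polysomal libraries and 0.503%, 0.291% and 0.516% of input. These copies can share reads with each other and with the mitochondrial rRNA, and the source of the reads was not tested.

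Outside these copies, the lowest mRNAs on polysomes came from genes of several functions. CXCL2, which encodes a chemokine that attracts neutrophils, was at 159, 162 and 150 TPM on polysomes and at 540, 842 and 797 TPM in input. TOMM5, a small subunit of the pore through which proteins enter mitochondria, was at 109, 151 and 125 TPM against 736, 544 and 444 TPM. Neither gene overlapped between the fractions, and the log2 differences were -2.18 (SE 0.22, limma adjusted p = 4.05e-04) and -2.13 (SE 0.24, limma adjusted p = 7.55e-04). Both stayed called with any 1 library left out. TAF13, a subunit of the general transcription factor TFIID, was at -2.64 (SE 0.64), PFDN4, a subunit of the chaperone prefoldin, at -2.57 (SE 0.44) and RNF11, a RING finger protein, at -2.48 (SE 0.51), and they kept their calls in 5, 10 and 8 of the 12 fits. SELENOW, a small selenoprotein, was at 87.3, 74.2 and 71.1 TPM against 397, 630 and 215 TPM, a log2 difference of -2.28 (SE 0.35, limma adjusted p = 0.00565), and it was the single selenoprotein called among 17 kept. GPX4, the peroxidase that protects membrane lipids, overlapped (-0.26, SE 0.30), and TXNRD2, the mitochondrial thioredoxin reductase, lay above input without a call (0.90, SE 0.25, limma adjusted p = 0.0805). Without the pair GPX4 was at 0.0025 and TXNRD2 passed at 0.95 (limma adjusted p = 0.0495).

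The 8 called genes with the largest positive differences were EIF3CL (4.10), POLR2G, IDH3B, ETFB, PSMB6, NME1-NME2, PMVK and PSMB3, with EIF3CL, PMVK and the PSMB genes given with their classes. POLR2G, a subunit of RNA polymerase II that binds the emerging transcript, was at 701, 581 and 930 TPM on polysomes and at 149, 193 and 190 TPM in input. ETFB, a subunit of the flavoprotein that passes electrons from fatty acid oxidation to the respiratory chain, was at 652, 679 and 665 TPM against 175, 245 and 191 TPM. CD63, a tetraspanin of late endosomes and exosomes, was at 2214, 1995 and 1582 TPM against 567, 770 and 487 TPM. In all 3 cases the lowest polysomal library lay more than the whole spread of the input libraries above the highest input library. The log2 differences were 2.03 for POLR2G (SE 0.21, limma adjusted p = 4.84e-04), 1.72 for ETFB (SE 0.20, limma adjusted p = 7.85e-04) and 1.68 for CD63 (SE 0.21, limma adjusted p = 0.00136), and all 3 kept their call with any 1 library left out. IDH3B, a subunit of the isocitrate dehydrogenase of the citric acid cycle, was at 1.77 (SE 0.34) and NME1-NME2, a read-through gene that shares its reads with NME1 and NME2, at 1.71 (SE 0.32). Each lost its call without siEIF3G polysomal 1, siEIF3G polysomal 2 or siEIF3G input 1.

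**Figure D2:**
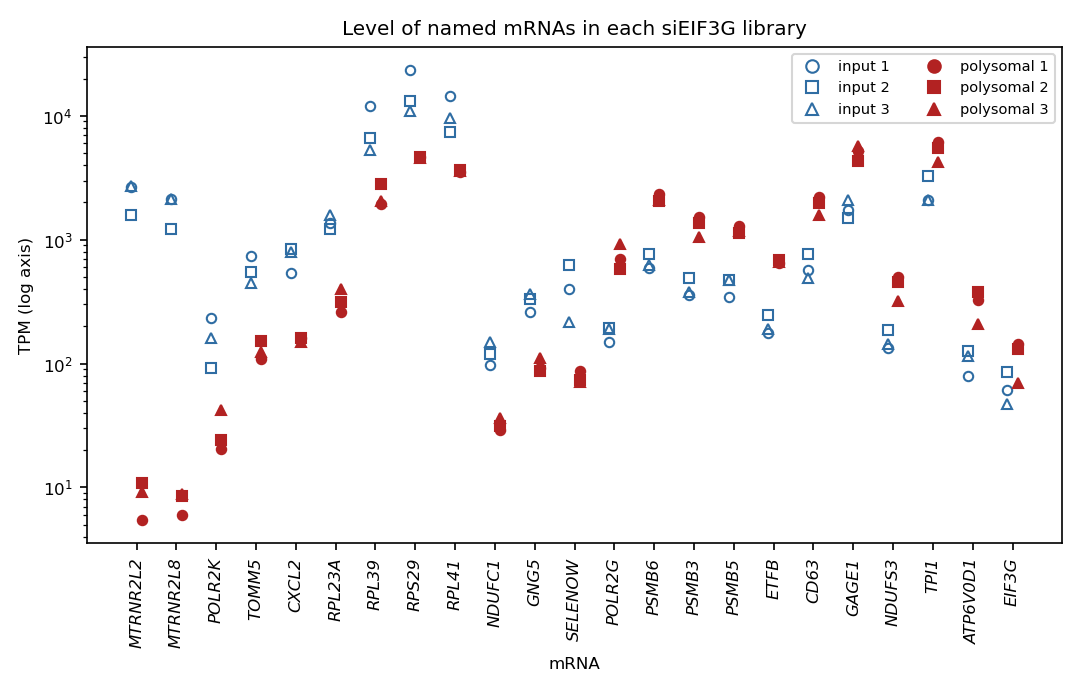
TPM on a log axis of 23 mRNAs in each siEIF3G library, with open blue symbols for input and filled red symbols for polysomal RNA, and circles, squares and triangles for replicates 1, 2 and 3. MTRNR2L2 and MTRNR2L8 lie more than 100-fold apart between the fractions, the other mRNAs a few-fold, and EIF3G at the right overlaps.

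The mRNAs of cytosolic ribosomal proteins, the proteins of the translation machinery, took a smaller share of polysomal than of input RNA. Summed over 79 genes, they made up 27.5%, 25.7% and 27.6% of the polysomal libraries and 39.2%, 37.0% and 33.7% of the input libraries. Every polysomal library lay below every input library, at 26.9% ± 1.05 against 36.7% ± 2.75 (SD, n = 3 libraries each, exact two-sided permutation test p = 0.1, the smallest that 3 against 3 allows). Of the 79 genes, 12 were called lower (15.2%, against 1.35% of all genes) and 0 higher. Polysomal libraries lay below all input libraries for 32 of them (12.7% over all genes) and above for 4 (9.48% over all genes). At 500 TPM or more, the level of most of this class, 17 of 303 genes of any kind were lower, or 5.61%. This count includes ribosomal protein genes, of which the 12 called lower had a median level of 4798 TPM. The class median stood at 0.01 relative to all genes as deposited, at 0.37 without siEIF3G input 2 and polysomal 3 and at -0.50 with quantile normalization, so its direction depended on the setting.

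The 12 ribosomal protein mRNAs called lower were RPL12, RPL17, RPL23A, RPL26, RPL31, RPL38, RPL39, RPL41, RPS2, RPS12, RPS27 and RPS29, 8 of the large and 4 of the small subunit. RPL23A was at 259, 312 and 403 TPM on polysomes and at 1370, 1223 and 1578 TPM in input. RPS29 was at 4613, 4677 and 4602 TPM against 23644, 13184 and 10853 TPM, and RPL39, which codes for a very small protein that lines the exit tunnel, at 1942, 2794 and 2054 TPM against 12085, 6579 and 5346 TPM. For RPS29 the polysomal libraries were nearly alike and the input libraries spread more, and no polysomal library of the 3 genes reached an input library. The log2 differences were -2.11 for RPL23A (SE 0.24, limma adjusted p = 6.96e-04), -1.70 for RPS29 (SE 0.27, limma adjusted p = 0.00596) and -1.75 for RPL39 (SE 0.32, limma adjusted p = 0.0131). RPL23A, RPL41, RPS12 and RPS29 kept their call with any 1 library left out, and the other 8 lost it without siEIF3G polysomal 1 and kept it in 7 to 10 of the 12 fits.

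Other ribosomal protein mRNAs lay on the opposite side. RPL8 was at 18473, 17331 and 16635 TPM on polysomes and at 8008, 13384 and 8148 TPM in input, a log2 difference of 0.87 (SE 0.23, limma adjusted p = 0.0631). RPS3, a protein of the mRNA entry channel, was at 4282, 3975 and 3485 TPM against 2163, 2335 and 2792 TPM, a log2 difference of 0.69 (SE 0.18, limma adjusted p = 0.0523). In both, every polysomal library was above every input library, neither passed the threshold, and both passed with quantile normalization. Both also passed without siEIF3G input 2 and polysomal 3, RPL8 at 1.15 (limma adjusted p = 0.0199) and RPS3 at 0.75 (limma adjusted p = 0.0381), as did RPS16 at 0.76 (limma adjusted p = 0.0398, against 0.40 with all libraries), while RPS2 lost its call (-0.92, limma adjusted p = 0.0583). The class then held 3 genes higher and 24 lower. RPL35, the most abundant member in input, was at 11908, 10690 and 13504 TPM on polysomes and at 28065, 30016 and 15618 TPM in input (-0.98, SE 0.32, limma adjusted p = 0.118). The members of this class thus ranged from -2.11 to 0.87. Ribosomal protein genes have many processed copies in the genome, and how the reads were shared among them was not tested.

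Ribosomal protein mRNAs begin with a C followed by a run of pyrimidines, the 5′ terminal oligopyrimidine (TOP) motif, through which mTOR signalling is known to control their translation. The windows below show 4 genes called lower (RPL39, RPL26, RPL31 and RPS12) and 4 not called (RPS3, RPL27A, RPS16 and FAU), each from 10 bases before to 20 bases from the RefSeq start, 5′ to 3′ on the strand of the gene, build GRCh38.p14. Capitals mark the unbroken run of C and T that begins at the annotated start.
RPL39, chrX:119791611-119791640, minus strand: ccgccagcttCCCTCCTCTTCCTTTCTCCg
RPL26, chr17:8383174-8383203, minus strand: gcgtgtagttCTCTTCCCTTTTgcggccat
RPL31, chr2:101002279-101002308, plus strand: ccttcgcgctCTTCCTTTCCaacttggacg
RPS12, chr6:132814559-132814588, plus strand: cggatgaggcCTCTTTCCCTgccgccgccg
RPS3, chr11:75399508-75399537, plus strand: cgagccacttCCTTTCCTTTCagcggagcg
RPL27A, chr11:8682782-8682811, plus strand: gaaggccttcCTTTTTCgtctgggctgcca
RPS16, chr19:39435930-39435959, minus strand: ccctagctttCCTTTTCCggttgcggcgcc
FAU, chr11:65122115-65122144, minus strand: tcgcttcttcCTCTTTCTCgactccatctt

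All 8 genes shown, which were chosen after values were seen, begin with a pyrimidine run. The run had 10 to 19 bases in the 4 called lower and 7 to 11 bases in the 4 not called. Run length was not measured in the rest of the class, so these 8 do not tell whether it differs with the call. A start of C followed by 4 bases that are each C or T, read only at the annotated start and on the strand of the gene, was present in 43 of 63 ribosomal protein genes with a RefSeq promoter entry. It was present in 8 of the 10 such genes called lower and in 35 of the 53 not called. Over all 27305 RefSeq promoters the share was 4.04%, and among the 8657 kept genes with an entry it was 487, or 5.63%. Of these 487 genes 18 were called lower (3.70%) and 5 higher, against 94 lower of 8170 genes with another start (1.15%). Outside the ribosomal proteins, 10 of 444 genes with such a start were lower (2.25%), and their median difference lay at -0.02 relative to all genes. A match is a description of the letters at the annotated start and not of the start used in these cells.

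Among 18 other TOP mRNAs, which encode elongation factors and further RNA-binding proteins, 1 was called lower, 0 higher, and the class median was -0.27 relative to all genes. The called gene was TPT1, the translationally controlled tumour protein, at 80.9, 93.5 and 149 TPM on polysomes against 392, 221 and 536 TPM in input. Its log2 difference was -1.78 (SE 0.39, limma adjusted p = 0.0299), and the call was kept in 6 of the 12 fits. PABPC1, the cytosolic poly(A)-binding protein, was at 123, 65.4 and 275 TPM against 754, 256 and 810 TPM, and EEF1A1, the elongation factor that delivers aminoacyl-tRNA, at 2247, 2394 and 3737 TPM against 5893, 2389 and 8852 TPM. In both, the fractions overlapped through polysomal 3 or input 2, and neither passed (-2.04, SE 0.71, and -0.88, SE 0.58). Without those libraries PABPC1 passed at -3.11 (limma adjusted p = 0.0331) and EEF1A1 was at -1.64 (limma adjusted p = 0.08), and 1 gene of the class was higher and 6 lower.

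The proteasome, which degrades ubiquitin-tagged proteins, took a larger share of polysomal RNA. Its 40 genes summed to 1.50%, 1.53% and 1.46% of the polysomal libraries and to 0.730%, 0.665% and 0.898% of input, so the fractions did not overlap (1.49% ± 0.0364 against 0.764% ± 0.120, SD, n = 3 libraries each, exact two-sided permutation test p = 0.1). Of the 40, 7 were called higher (17.5%, against 1.82% of all genes) and 0 lower, and the class median was 0.93 relative to all genes. It stayed positive under every alternative run, between 0.26 with quantile normalization and 1.03. Of the 969 genes of any kind at 100 to 500 TPM, the range that holds the middle member of this class, 9.18% were called higher. Of the 303 genes at 500 TPM or more, the range that holds the middle PSMB gene, 13.2% were.

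The 7 proteasome calls were not spread over the complex: 6 fell on PSMB genes, which encode the β ring that holds the catalytic sites, and the seventh was ADRM1, a ubiquitin receptor. Of 10 PSMB genes kept, PSMB3, PSMB4, PSMB5, PSMB6, PSMB7 and PSMB9 were higher. Of 7 PSMA genes (the α ring), 7 PSMC genes (ATPases of the regulatory cap) and 14 PSMD genes (other cap subunits), 0 were called. PSMB6, a catalytic subunit, was at 2335, 2046 and 2093 TPM on polysomes and at 587, 772 and 623 TPM in input, 3.27-fold higher. PSMB3 was at 1511, 1376 and 1053 TPM against 356, 487 and 379 TPM, and PSMB5, the subunit inhibited by bortezomib, at 1278, 1126 and 1179 TPM against 346, 475 and 474 TPM. In all 3 the lowest polysomal library was above the highest input library, and all 3 kept their call with any 1 library left out. Their log2 differences were 1.71 (SE 0.18, limma adjusted p = 4.05e-04), 1.68 (SE 0.20, limma adjusted p = 0.00116) and 1.48 (SE 0.19, limma adjusted p = 0.00136). PSMB7 lost its call without siEIF3G input 2 and polysomal 3 (1.05, SE 0.37, limma adjusted p = 0.0648). The PSMB median was 1.72 relative to all genes, against 0.55 for PSMA (which turned to -0.07 with quantile normalization), 0.73 for PSMC and 0.50 for PSMD. The middle PSMB gene had a mean level of 753 TPM, and the middle PSMA, PSMC and PSMD genes 120, 67.4 and 73.2 TPM. These families were picked by symbol after values were seen, and no test compares them.

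**Figure D3:**
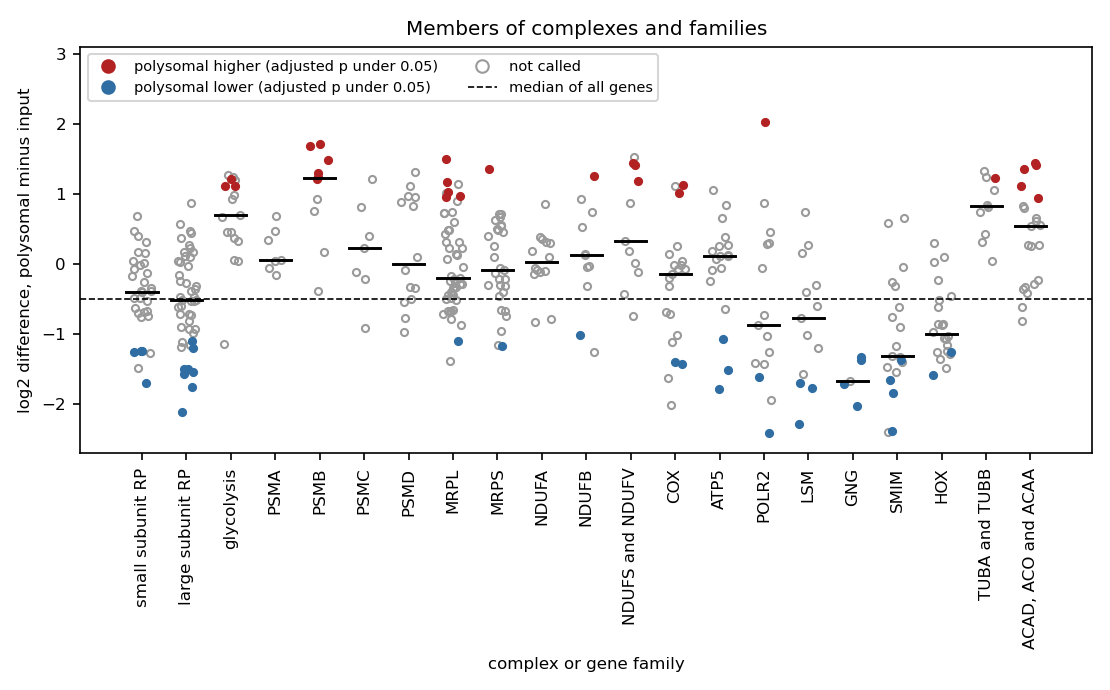
Log2 difference, polysomal minus input, of each kept member of 21 complexes or gene families, with black bars for the median of each family and the dashed line for the median of all genes at -0.49. RP stands for ribosomal proteins. Red points are called higher and blue points lower; PSMB stands above the other proteasome families, GNG and SMIM lie below the line, and the POLR2 family holds calls on both sides.

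Glycolysis, the pathway from glucose to pyruvate, made up 5.11%, 6.04% and 4.22% of the polysomal libraries and 2.18%, 2.91% and 2.81% of input over 18 genes. The fractions did not overlap (5.12% ± 0.912 against 2.63% ± 0.398, SD, n = 3 libraries each, exact two-sided permutation test p = 0.1). Of 17 genes kept, 3 were called higher (17.6%, against 1.82% of all genes) and 0 lower. At 100 to 500 TPM 9.18% of genes of any kind were called higher, and at 500 TPM or more 13.2%. Polysomal libraries lay above all input libraries for 9 of the 17, against 9.48% of all genes. The class median was 1.19 relative to all genes, 0.65 with quantile normalization and 1.80 without siEIF3G input 2 and polysomal 3. ALDOA, the aldolase that splits fructose bisphosphate, was at 6017, 6331 and 4664 TPM against 2358, 3219 and 2312 TPM, and TPI1, the triose phosphate isomerase, at 6155, 5497 and 4252 TPM against 2104, 3280 and 2075 TPM. PFKL, the liver form of phosphofructokinase, was the third, at 201, 276 and 167 TPM against 88.5, 103 and 80.1 TPM. Polysomal 3 was the lowest polysomal library in each of the 3. The log2 differences were 1.11 (SE 0.22, limma adjusted p = 0.0191), 1.11 (SE 0.23, limma adjusted p = 0.0209) and 1.21 (SE 0.30, limma adjusted p = 0.0446), and the calls were kept in 8, 8 and 6 of the 12 fits. GAPDH, the most abundant member, was at 27263, 31864 and 21390 TPM against 11298, 16114 and 14629 TPM and did not pass (0.93, SE 0.27, limma adjusted p = 0.0833), but passed without the pair (1.20, SE 0.33, limma adjusted p = 0.04). ENO2, an enolase, and PKM, the pyruvate kinase, had the largest differences, 1.27 (SE 0.39) and 1.25 (SE 0.43), with no overlap and no call.

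Subunits of the respiratory chain and ATP synthase, which are encoded in the nucleus and imported into mitochondria, split in both directions. Of 79 genes, 7 were higher (8.86%) and 5 lower (6.33%), against 1.82% and 1.35% of all genes. At 100 to 500 TPM, the range that holds the middle member of this class, 9.18% of genes of any kind were higher and 3.72% lower. The share called higher was thus near that of genes at this level. The class median was 0.63 relative to all genes, with a low of 0.05 under quantile normalization. CYC1, cytochrome c1 and the most abundant member, overlapped (0.26, SE 0.29). Higher were NDUFS3, NDUFV1, NDUFS6 and NDUFB8 of complex I, UQCRC1 of complex III, and COX4I1 and COX7A2 of complex IV. NDUFS6 was at 2281, 1868 and 2412 TPM against 927, 1067 and 881 TPM, a log2 difference of 1.19 (SE 0.18, limma adjusted p = 0.00467). NDUFV1, the subunit that takes electrons from NADH, was at 872, 950 and 1019 TPM against 316, 452 and 310 TPM, a log2 difference of 1.41 (SE 0.24, limma adjusted p = 0.00848). NDUFS6 kept its call with any 1 library left out, and NDUFV1 lost it only without siEIF3G input 1 (adjusted p = 0.0535).

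Lower on polysomes were NDUFC1 and NDUFB4 of complex I and ATP5F1E, ATP5MF and ATP5MK of ATP synthase. ATP5MF and ATP5MK lost their calls without siEIF3G input 2 and polysomal 3 (-1.01 and -1.64, limma adjusted p = 0.0522 and 0.0663). NDUFC1 was at 28.8, 31.6 and 36.1 TPM against 97.2, 119 and 149 TPM, and ATP5F1E at 23.1, 30.3 and 33.4 TPM against 104, 76.5 and 73.1 TPM. No polysomal library reached the lowest input library in either. Their log2 differences were -1.87 (SE 0.25, limma adjusted p = 0.00249) and -1.51 (SE 0.26, limma adjusted p = 0.0102), and NDUFC1 kept its call with any 1 library left out. COX7A2L, which joins respiratory complexes into supercomplexes, was lower at 73.0, 69.7 and 84.8 TPM against 223, 218 and 178 TPM (-1.43, SE 0.21, limma adjusted p = 0.00445), and COX17, a copper chaperone of complex IV, was at -1.39 (SE 0.22). COX7A2L and its paralogue COX7A2 (1.13, SE 0.22, limma adjusted p = 0.0182) were thus called in opposite directions.

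The mitochondrial ribosome, which translates the few mRNAs of the mitochondrial genome, had 6 of 77 mRNAs called higher (7.79%) and 2 lower (2.60%). Over all genes 1.82% were higher and 1.35% lower. At 20 to 100 TPM, the range that holds the middle member of this class, 2.31% and 2.16% were. MRPL27 was at 391, 369 and 376 TPM on polysomes and at 132, 134 and 135 TPM in input, narrow and separate groups, with a log2 difference of 1.50 (SE 0.20, limma adjusted p = 0.002) that held with any 1 library left out. MRPL2, MRPL14, MRPL24, MRPL52 and MRPS26 were also higher, between 0.95 and 1.36. MRPL34 was lower at 109, 107 and 112 TPM against 244, 275 and 191 TPM (-1.10, SE 0.22, limma adjusted p = 0.0191), and MRPS15 at -1.17 (SE 0.23). MRPL41, the most abundant member, overlapped (0.08, SE 0.38, and 0.32 without the pair). The class median of 0.37 relative to all genes turned to -0.07 with quantile normalization and was 0.75 without siEIF3G input 2 and polysomal 3. Enzymes of acyl-CoA metabolism, grouped by symbol after values were seen, had 5 of 21 genes higher, against 1.82% of all genes, and 0 lower. These were ACADVL, which starts the oxidation of very long chain fatty acids, ACAA1, the thiolase of peroxisomes, and the thioesterases ACOT1, ACOT2 and ACOT7. ACAA1 was at 77.9, 79.0 and 71.2 TPM against 20.5, 31.9 and 31.1 TPM (1.44, SE 0.26, limma adjusted p = 0.0131). ACOT1 and ACOT2 are near copies that can share reads.

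**Figure D4:**
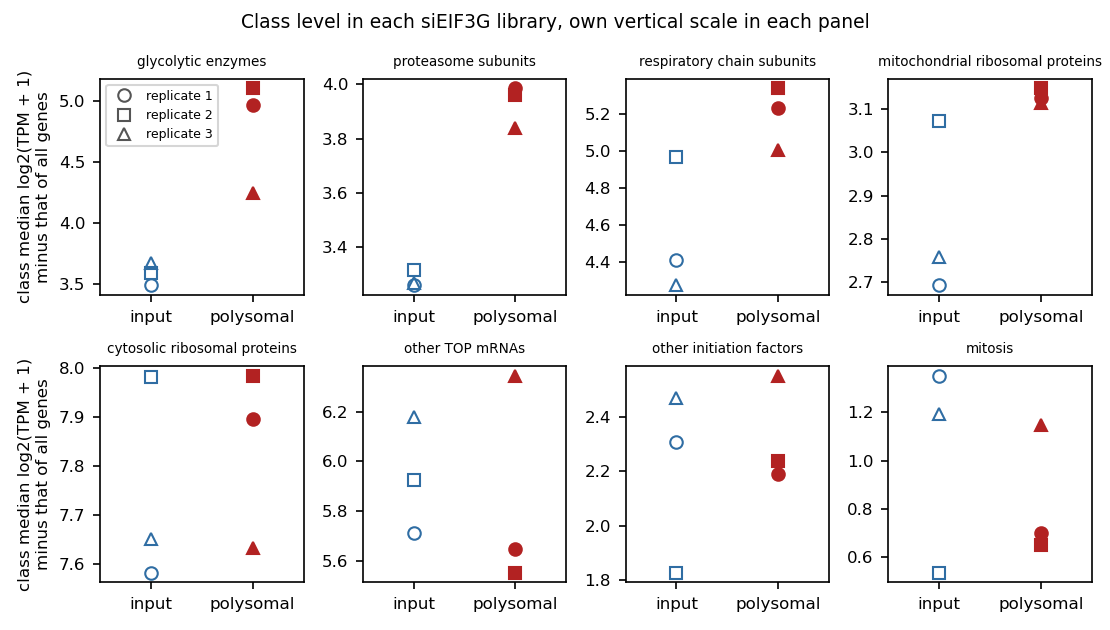
Class median of log2(TPM + 1) minus that of all genes in each siEIF3G library, in input (open blue) and polysomal RNA (filled red), with circles, squares and triangles for replicates 1, 2 and 3 and a separate vertical scale in each of 8 panels. Glycolytic enzymes, proteasome, respiratory chain and mitochondrial ribosomal proteins do not overlap between the fractions, while the other 4 panels do, with input 2 or polysomal 3 beside the other fraction.

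RNA polymerase II subunits showed both directions within a single complex. Of 12 genes in the list, POLR2G was higher and POLR2J and POLR2K were lower, against 1.82% and 1.35% of all genes. POLR2J, a subunit of the core, was at 72.0, 74.2 and 74.3 TPM on polysomes and at 229, 260 and 198 TPM in input. POLR2K, a small zinc-binding subunit shared by all nuclear polymerases, was at 20.6, 24.0 and 41.8 TPM against 232, 92.0 and 160 TPM. Neither overlapped between fractions, and the log2 differences were -1.62 (SE 0.20, limma adjusted p = 0.00136) and -2.42 (SE 0.38, limma adjusted p = 0.00596). POLR2J kept its call with any 1 library left out, and POLR2K lost it without siEIF3G polysomal 1, where it stood at the threshold. POLR2E, a subunit shared by all nuclear polymerases, lay on the higher side without a call (0.87, SE 0.23, limma adjusted p = 0.0619). It passed without the pair (1.20, limma adjusted p = 0.0136). POLR2J has near copies that can share its reads.

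Calls on the lower side fell in several symbol families, which were grouped after values were seen, so their counts are a description. Over all genes 1.35% were called lower. At 20 to 100 TPM, the range of the middle GNG, SMIM and LSM genes, 2.16% were. At 100 to 500 TPM, the range of the middle prefoldin gene, 3.72% were. Of 5 GNG genes kept, which encode the γ subunits of heterotrimeric G proteins, GNG4, GNG5, GNG10 and GNG11 were lower. GNG5 was at 92.7, 86.5 and 111 TPM against 261, 334 and 366 TPM, a log2 difference of -1.71 (SE 0.21, limma adjusted p = 0.00136) that held with any 1 library left out. Of 19 SMIM genes (small integral membrane proteins), SMIM19, SMIM27, SMIM29 and SMIM30 were lower and 0 higher, with SMIM27 at 7.71, 11.5 and 12.5 TPM against 87.3, 59.1 and 38.6 TPM (-2.39, SE 0.35, limma adjusted p = 0.00379). Of 13 LSM genes, whose products form rings on uridine-rich RNA, LSM3, LSM10 and LSM12 were lower. Of 5 prefoldin subunits, PFDN1 (-2.17, SE 0.41) and PFDN4 were lower, while the family median was 0.52 relative to all genes and -0.19 with quantile normalization. The medians of GNG and SMIM were -1.18 and -0.82 relative to all genes and stayed negative under each scaling, and that of LSM was -0.27. SMIM29 lost its call without the pair (-1.003, SE 0.35, limma adjusted p = 0.0637). Reading-frame length was not analysed here.

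Translation factors outside the TOP list gave few calls. Of the 13 other eIF3 subunits kept, 1 was called, EIF3CL, at 18.8, 26.8 and 192 TPM on polysomes against 1.10, 3.21 and 1.37 TPM in input. Its log2 difference was 4.10 (SE 0.87, limma adjusted p = 0.0247), 3.39 without siEIF3G input 2 and polysomal 3, and the call was kept in 8 of the 12 fits. Polysomal 3 stood far above the other polysomal libraries. EIF3CL is a near copy of EIF3C and can share its reads, and EIF3C was at 152, 176 and 197 TPM against 214, 150 and 398 TPM (-0.43, SE 0.57, limma adjusted p = 0.594). EIF3K was at 2003, 1864 and 1028 TPM against 679, 1027 and 752 TPM and did not pass (0.96, SE 0.26, limma adjusted p = 0.0718). EIF3A, the scaffold, was at 6.85, 5.77 and 24.4 TPM against 57.5, 9.80 and 47.0 TPM (-1.50, SE 0.82, limma adjusted p = 0.305), and EIF3H was at -1.37 (SE 0.57), both with overlap. Without siEIF3G input 2 and polysomal 3, EIF3K passed at 1.43 (SE 0.21, limma adjusted p = 0.0084), EIF3A at -2.86 (SE 0.83, limma adjusted p = 0.0449) and EIF3H at -2.23 (SE 0.61, limma adjusted p = 0.0397), EIF3C was at -0.83, and 2 subunits were higher and 4 lower. Over all genes 7.91% were then higher and 8.15% lower. The eIF3 median was -0.13 relative to all genes, and 0.09 without siEIF3G input 2 and polysomal 3. Of 25 other initiation factors 0 were called, and their median was -0.20 relative to all genes. EIF6, which keeps ribosomal subunits apart, was at 3090, 2742 and 2815 TPM against 1315, 1974 and 1025 TPM and lay just short of the threshold (1.05, SE 0.27, limma adjusted p = 0.0515), while EIF4B, a helicase cofactor, overlapped (-1.29, SE 0.65). Without the pair EIF6 passed at 1.33 (limma adjusted p = 0.0224) and EIF4B was at -2.13 (limma adjusted p = 0.0627), and 1 of the 25 was higher and 6 lower.

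Cytosolic aminoacyl-tRNA synthetases, which charge tRNA, had 0 of 23 called and a median of 0.24 relative to all genes that turned to -0.18 with quantile normalization. FARSA was at 805, 886 and 648 TPM against 339, 468 and 273 TPM, just short of the threshold (1.14, SE 0.29, limma adjusted p = 0.0528), and HARS1 overlapped (0.97, SE 0.63). Without the pair FARSA passed at 1.47 (limma adjusted p = 0.0248), and 1 of the 23 was higher and 2 lower. Ribosome biogenesis factors had 3 of 53 higher (5.66%, against 1.82% of all genes) and 0 lower: NOP16 (1.35, SE 0.29), the helicase DDX56 (1.29, SE 0.29) and RRP9 (0.97, SE 0.24), which kept their calls in 7, 6 and 4 of the 12 fits. RRP1 stood at the threshold without a call (1.32, SE 0.33, limma adjusted p = 0.0503), and FBL, the methyltransferase of box C/D particles and the most abundant, overlapped (0.75, SE 0.23). Without the pair RRP1 passed at 1.53 (limma adjusted p = 0.0361) and FBL at 1.13 (limma adjusted p = 0.0108), and 7 of the 53 were higher and 2 lower. NOP16 was at 262, 261 and 228 TPM on polysomes and at 93.7, 77.8 and 127 TPM in input, with no overlap. The median of the biogenesis class was 0.11 relative to all genes and turned to -0.20 both with quantile normalization and without siEIF3G input 2 and polysomal 3.

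Genes of membranes, lipids and the secretory route gave a small number of calls, mostly higher. Over all genes 1.82% were called higher and 1.35% lower. Of 26 genes of cholesterol biosynthesis 3 were higher (11.5%) and 0 lower: PMVK, the phosphomevalonate kinase, FDPS, which makes farnesyl diphosphate, and EBP, a sterol isomerase. PMVK was at 250, 227 and 252 TPM against 69.7, 88.0 and 67.0 TPM, with a log2 difference of 1.69 (SE 0.24, limma adjusted p = 0.00319) that held with any 1 library left out. Of 36 lysosomal genes 2 were higher, ATP6V0D1 of the proton pump at 324, 380 and 207 TPM against 79.7, 125 and 115 TPM (1.48, SE 0.28, limma adjusted p = 0.0144) and the protease CTSD (1.10, SE 0.27). The class medians were 0.49 and 0.46 relative to all genes and stayed positive under each scaling. With 1 library left out, the cholesterol median ranged from 0.23 to 0.74 and the lysosomal one from 0.40 to 0.70. Of 19 endoplasmic reticulum chaperones 1 was higher, PPIB, a prolyl isomerase (0.98, SE 0.23). Of 31 genes of translocation and glycosylation at that membrane 2 were lower, SEC61G (-0.90, SE 0.21) and OST4 (-0.93, SE 0.21), both very small membrane subunits of larger complexes. SSR3, of the translocon-associated complex, was at -1.55 (SE 0.51) without overlap or call, and its partner SSR2 at 0.70 (SE 0.21), so members again lay on both sides. PSAP, the precursor of the saposins (1.28, SE 0.48), and SDF2L1, a chaperone cofactor (1.02, SE 0.31), were above input in every library without a call. Without the pair SSR3 (-2.19), SSR2 (0.98) and SDF2L1 (1.297) passed, with limma adjusted p of 0.0369, 0.0175 and 0.0392. EBP, FDPS, ATP6V0D1, CTSD, PPIB, SEC61G and OST4 kept their calls in 10, 4, 9, 4, 5, 5 and 6 of the 12 fits.

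GAGE genes, cancer-testis antigens of the X chromosome that this line expresses strongly, were higher on polysomes in 4 of 8 kept members, against 1.82% of all genes. All 8 had polysomal libraries above all input libraries, against 9.48% of all genes. GAGE1 was at 5228, 4315 and 5679 TPM against 1724, 1503 and 2108 TPM (1.52, SE 0.19, limma adjusted p = 0.00136). These genes are nearly identical copies that share reads, so the members cannot be counted as separate findings. TUBB3, a β-tubulin, was the 1 called gene of 10 tubulins (1.23, SE 0.26) and kept its call in 7 of the 12 fits, and all 10 had a positive log2 difference.

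Classes of nuclear and cell-cycle proteins gave few calls with all libraries. The fractions did not overlap for 3 of 42 mitosis genes, 11 of 44 DNA replication genes, 10 of 33 histone genes and 0 of 18 SR splicing factors. Over all genes, the polysomal libraries lay above all input libraries for 9.48% and below them for 12.7%. Of 42 mitosis genes 0 were called, at a class median of -0.18 relative to all genes and -0.64 without siEIF3G input 2 and polysomal 3. TOP2A, the topoisomerase that untangles chromosomes, was at 4.28, 4.79 and 13.7 TPM on polysomes and at 39.2, 7.11 and 34.3 TPM in input. Input 2 lay beside the polysomal libraries, and the log2 difference of -1.56 had an SE of 0.76 (limma adjusted p = 0.258). SON, a large nuclear-speckle protein in the list of SR splicing factors, showed the same spread with 2.97, 2.94 and 13.3 TPM against 37.0, 8.21 and 35.4 TPM (-1.94, SE 0.76, limma adjusted p = 0.181), and 0 of 18 genes of that list were called. Without siEIF3G input 2 and polysomal 3, TOP2A passed at -2.77 (SE 0.77, limma adjusted p = 0.041) and SON at -3.23 (SE 0.75, limma adjusted p = 0.0274), with 3 mitosis genes higher and 4 lower and 0 SR genes higher and 3 lower. The mesenchymal gene LAMC1, a laminin chain, spread likewise (-1.42, SE 0.71, and -2.43 without the pair), and 0 of 19 mesenchymal and matrix genes were called. CDC20, an activator of the anaphase-promoting complex, lay on the other side at 946, 1150 and 827 TPM against 330, 506 and 481 TPM (1.16, SE 0.30, limma adjusted p = 0.0575), and passed without the pair (1.39, limma adjusted p = 0.0396). Of 44 DNA replication genes 1 was lower, POLE3, a small histone-fold subunit (-1.47, SE 0.37, limma adjusted p = 0.049), and of 33 replication-dependent histone genes 1 was lower, H2BC12 (-1.16, SE 0.27, limma adjusted p = 0.0348). Replication-dependent histone mRNAs mostly lack a poly(A) tail, and the middle kept member was at 4.41 TPM. The calls of POLE3 and H2BC12 were kept in 3 and 5 of the 12 fits. MCM7 and MCM5 of the replicative helicase were above input in every library, at 1.33 (SE 0.44) and 1.16 (SE 0.37), without a call.

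Stress-related mRNAs were called in a few cases. Of 23 immediate early genes 1 was higher, IER2, at 638, 641 and 439 TPM against 202, 277 and 285 TPM (1.16, SE 0.23, limma adjusted p = 0.0171). Of 35 ATF4 targets 1 was higher, SHMT2, a mitochondrial enzyme of serine and glycine metabolism (1.31, SE 0.30, limma adjusted p = 0.0344). ATF4 itself, the stress transcription factor whose translation is held back by upstream reading frames, was at 97.6, 125 and 321 TPM on polysomes and at 265, 279 and 579 TPM in input. Polysomal 3 lay above 2 of the input libraries, and the log2 difference was -1.15 (SE 0.42, limma adjusted p = 0.152). Without polysomal 3 and input 2 it was -1.82 (SE 0.37, limma adjusted p = 0.0188), a call. Of 20 mRNAs with regulatory upstream reading frames 0 were called, and their median was -0.22 relative to all genes. EPRS1, a bifunctional tRNA synthetase, was the farthest of them at 4.48, 4.04 and 27.5 TPM against 35.05, 7.52 and 51.4 TPM (-1.45, SE 0.85, limma adjusted p = 0.326), with polysomal 3 and input 2 beside the other fraction. Without those libraries EPRS1 passed at -3.05 (SE 0.76, limma adjusted p = 0.0323), and 0 of the 20 were higher and 4 lower. Heat shock proteins had 0 of 17 called, at a class median of 0.12 relative to all genes that turned to -0.25 with quantile normalization. HSPB1 (0.42, SE 0.24) and HSPE1 (-0.09, SE 0.33), the most abundant of them, overlapped, and without the pair they were at 0.73 and -0.32. IER2 and SHMT2 kept their calls in 9 and 6 of the 12 fits.

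Further members of these classes, taken by abundance or distance from the median, were not called. On the higher side were JUNB, an AP-1 subunit (0.77, SE 0.29), PHGDH, the first enzyme of serine synthesis (1.20, SE 0.48), SELENOO (0.68, SE 0.31), KRT8 (0.67, SE 0.43), OAZ1, the ornithine decarboxylase antizyme (0.35, SE 0.23), ATP6V0B (0.34, SE 0.36) and SRSF9 (0.27, SE 0.33). On the lower side were the splicing cofactor SRRM1 (-1.77, SE 0.61), SRP19 of the signal recognition particle (-1.64, SE 0.56), H2BC9 (-1.13, SE 0.49), CALD1, the actin-binding caldesmon (-0.87, SE 0.73), LAMP3 (-0.83, SE 0.52), MBP (-0.69, SE 0.42) and FOSL1 (-0.18, SE 0.22). HSPA1B, an inducible heat shock protein with a near-identical copy, was at 53.8, 98.8 and 20.8 TPM on polysomes and at 53.3, 46.3 and 37.1 TPM in input, with no separation between the fractions. Without the pair JUNB (1.15), SRRM1 (-2.66) and SRP19 (-2.65) passed, with limma adjusted p of 0.0302, 0.0302 and 0.0136. The others that moved by more than 1.5 times and were not called were KRT8 at 1.34, PHGDH at 0.68, OAZ1 at 0.58, SRSF9 at 0.04, CALD1 at -2.04, LAMP3 at -1.65, H2BC9 at -0.39, FOSL1 at -0.10 and HSPA1B at 0.70.

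**Figure D5:**
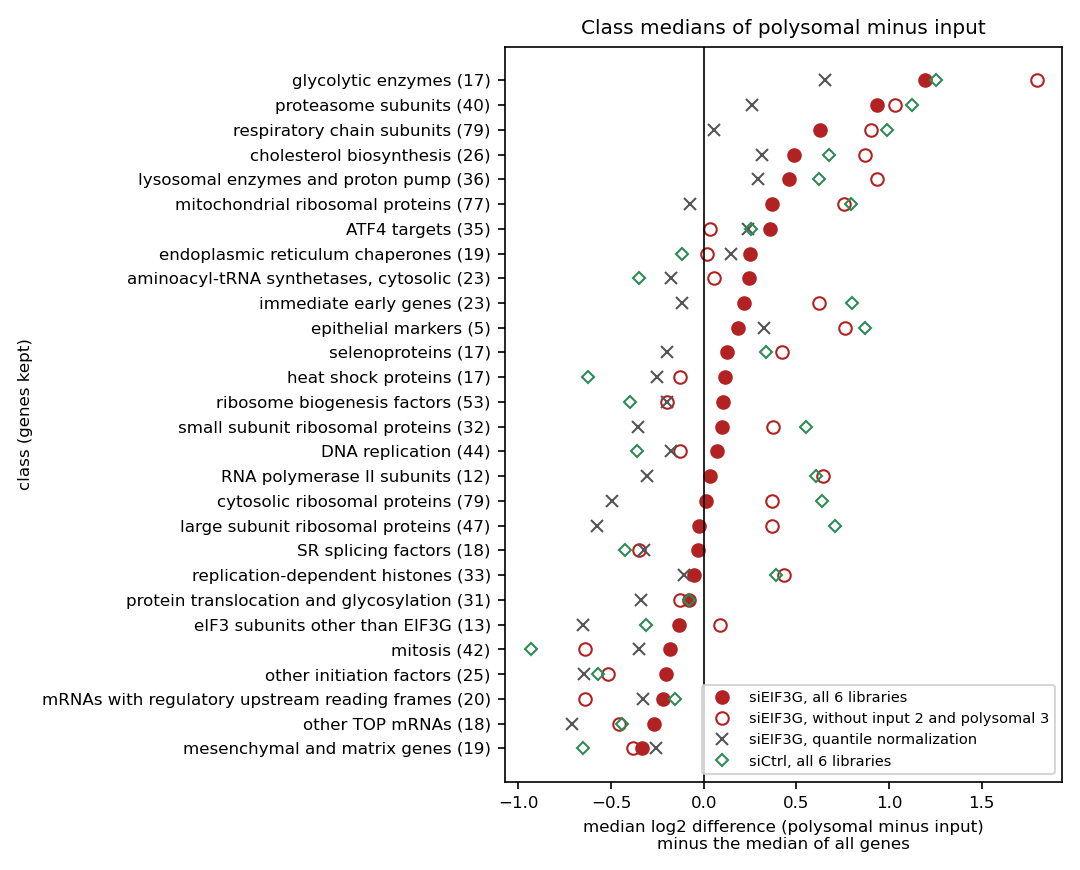
Median log2 difference, polysomal minus input, of each of 28 classes minus the median of all genes, with the number of genes kept in brackets. Filled red circles are siEIF3G with all 6 libraries, open red circles leave out siEIF3G input 2 and polysomal 3, crosses are siEIF3G after quantile normalization and green diamonds are siCtrl cells. Glycolytic enzymes (1.19) and proteasome subunits (0.93) lie highest in siEIF3G, and several classes near 0 change side between the settings.

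Calls in both directions were more frequent among abundant mRNAs and in compact genes. In genes with a mean of 1 to 5 TPM, 0 of 3262 were higher and 10 lower. From 20 to 100 TPM, 60 of 2592 were higher and 56 lower, from 100 to 500 TPM 89 and 36 of 969, and at 500 TPM or more 40 and 17 of 303. The median log2 difference relative to all genes was -0.17 at 1 to 5 TPM and 0.78 at 500 TPM or more, and with quantile normalization these were -0.02 and 0.16. By the genomic span of the gene in RefSeq, introns included, 213 genes under 2 kb had 5 higher and 19 lower (8.92%), and 2992 genes of 5 to 20 kb had 120 higher (4.01%) and 61 lower. Of 1680 genes of 100 kb or more, 1 was higher and 7 lower. The median span was 9.15 kb for genes called higher, 9.82 kb for genes called lower and 30.04 kb for genes not called, and the median level 159, 56.1 and 10.2 TPM. Level and span were not separated from each other, and their part in the class results was not tested.

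The same contrast in siCtrl cells, fitted over the same 10531 genes, called 839 genes higher (7.97%) and 2985 lower (28.3%), with a median gene at -0.96. Of the 192 genes higher in siEIF3G cells 190 were called higher there, and of the 142 lower 140 were called lower, with the same sign for all 334. Both contrasts use the same estimate of the spread for each gene, so the 2 sets of calls are not independent. The siCtrl counts depended on scaling and on single libraries: 2818 and 1675 with size factors, 1648 and 1415 with quantile normalization, 756 and 4829 with the total without ribosomal protein and MTRNR2L genes, 576 and 848 with a pseudocount of 5, 556 and 700 with no filter, 836 and 1782 at a mean of 5 TPM or more, 113 and 118 without siCtrl polysomal 1, 48 and 82 without siCtrl polysomal 2, 159 and 116 without siCtrl polysomal 3, 949 and 6170 without siCtrl input 1, 89 and 61 without siCtrl input 2, and 91 and 84 without siCtrl input 3. Of the siEIF3G libraries, which share in the spread, they were 412 and 709 without polysomal 1, 547 and 997 without polysomal 2, 947 and 4750 without input 2 and 709 and 1788 without input 3. PSMB6 was at 1.85 in siCtrl and 1.71 in siEIF3G cells, POLR2G at 2.21 and 2.03, ETFB at 1.67 and 1.72, TOMM5 at -2.10 and -2.13, CXCL2 at -1.92 and -2.18, and RPL23A at -1.55 and -2.11. Relative to all genes, the siCtrl medians were 1.26 for glycolytic enzymes, 1.12 for the proteasome, 0.99 for the respiratory chain, 0.64 for cytosolic ribosomal proteins and -0.93 for mitosis. The summed ribosomal protein share in siCtrl cells was 22.9%, 26.7% and 28.3% on polysomes and 36.4%, 30.1% and 28.5% in input, so there too the fractions did not overlap.

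The difference between the siEIF3G and siCtrl contrasts was tested gene by gene with limma. It called 0 genes (0.00%), with 17 at an unadjusted p under 0.05 and a smallest adjusted p of 0.912. Evenly spread p-values would put 527 genes under 0.05, and the reason for the far lower count was not tested. Limma also called 0 genes under every alternative that includes the control libraries. Without siCtrl input 1, 2204 genes were at an unadjusted limma p under 0.05 (smallest adjusted p 0.23). That control library lay nearer to the other fraction (0.957) than to its own (0.922). The smallest p-values belonged to H1-2, a linker histone, HSP90B1, the chaperone GRP94, RPL29 and VCP, a segregase of ubiquitinated proteins. HSP90B1 was at 27.1, 32.8 and 59.8 TPM on siEIF3G polysomes against 130, 33.55 and 104 TPM in input, and at 9.77, 15.35 and 4.30 TPM on siCtrl polysomes against 32.35, 131 and 193 TPM in input. Its log2 difference was -1.02 (SE 0.66) in siEIF3G and -3.28 (SE 0.66) in siCtrl cells, which differ by 2.26 (SE 0.94, limma adjusted p = 0.912). H1-2 was at -0.35 and 0.73, a difference of -1.08 (SE 0.36), RPL29 at -0.53 and 0.06, a difference of -0.58 (SE 0.24), and VCP at -0.20 and -2.01, a difference of 1.81 (SE 0.76), each with a limma adjusted p of 0.912. Without siEIF3G input 2 and polysomal 3 the siEIF3G values were -1.93 for HSP90B1, -0.18 for H1-2 and -0.45 for VCP, and 0 differences were called. The standard errors of these differences, 0.24 to 0.94, exceed those of the single contrasts. A change of the polysomal pattern with EIF3G depletion was not detectable for single genes in these fits, whose groups held at most 3 libraries. This does not show that the patterns are the same.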

How the data were processed

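The deposited values are TPM, estimated shares of each library per gene. According to the notes, the authors used RSEM 1.3.1 and the build GRCh38.p13 (per the submitters' processing notes). For aligner, annotation and filters, details were not given in the sources used here. The values of a library add up to a fixed total, so depth is unknown and no counting interval can be given. The analysis used log2(TPM + 1). Genes averaging at least 1 TPM in the 6 siEIF3G libraries were fitted with limma 3.58.1 in R 4.3.3 as 4 group means over all 12 libraries, with a mean-variance trend. Adjustment followed Benjamini-Hochberg across all 10531 genes. Library shares were compared by an exact permutation test in Python 3.11.15. The fit was tested on simulated data.

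The comparison and the 30 gene lists were chosen with earlier results of these data known, so classes are described by counts and medians, without set tests. Genes were named by a rule: EIF3G and MTRNR2L2, the 8 largest differences in each direction among called genes averaging 5 TPM or more, of each list the most abundant member and the 2 farthest from all genes on the side of its median, and the 4 smallest p-values for the difference from siCtrl. Other list members are named where called, and CXCL2, TOMM5, CD63, COX17, COX7A2L, EIF3C, the 8 genes whose starts are shown and the symbol families were chosen after values were seen. Of the 10531 genes 10394 matched a RefSeq symbol, and start windows and gene spans come from RefSeq GRCh38.p14. Classes by coding length were not run. An item picked by the rule is not reported here.

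Alternatives were other pseudocounts (0.1 and 5), filters, scalings, variance models, sets of libraries and the replicate number as a block. The siEIF3G libraries that stood apart were picked by their correlations in these data. Leaving out all 3 libraries that stood apart was added after seeing the data.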

Additional observations from a re-analysis of the deposited data

How the results depend on the processing

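No value reversed a call, and all 334 called genes kept their sign in every alternative in which they were tested. Over 92 genes named by rule, 2010 values under the alternatives stayed on their side of the threshold, 143 called values lost it and 145 passed it. The number of genes higher and lower was 17 and 29 with size factors, 96 and 281 with the total that leaves out ribosomal protein and MTRNR2L genes, 66 and 83 with no trend and 31 and 47 with only the 6 siEIF3G libraries. It was 833 and 858 without both siEIF3G libraries that stood apart, 1733 and 5761 without all 3 libraries that stood apart, and 233 lower with quantile normalization. The cause was not tested for these settings, and those that leave out libraries also fit fewer samples. Leaving out 1 library gave 20 to 544 higher and 24 to 460 lower.

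With the replicate number as a block, 33 genes were higher and 42 lower. Deviations of same-numbered polysomal and input libraries correlated at -0.45, 0.63 and 0.62 in siEIF3G and at -0.13, 0.36 and -0.53 in siCtrl cells, so the numbers are not taken to pair the samples.

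Class medians relative to all genes moved as follows. Without both siEIF3G libraries that stood apart, and equally without all 3, they were 0.37 for cytosolic and for large subunit ribosomal proteins, -0.52 for other initiation factors, 0.75 for mitochondrial ribosomal proteins, 1.03 for the proteasome, 0.93 for lysosomal genes and 0.87 for cholesterol biosynthesis. They were also 1.80 for glycolytic enzymes, 0.43 for histones, -0.13 for DNA replication, -0.64 for mitosis and for mRNAs with upstream reading frames, 0.64 for RNA polymerase II, 0.62 for immediate early genes, 0.42 for selenoproteins and 0.76 for epithelial markers. With quantile normalization they were -0.50 for cytosolic, -0.36 for small subunit and -0.57 for large subunit ribosomal proteins, -0.71 for other TOP mRNAs, -0.65 for eIF3 and for other initiation factors, -0.0727 for mitochondrial ribosomal proteins, 0.0539 for the respiratory chain and -0.25 for heat shock proteins. They were then -0.34 for translocation and glycosylation, 0.26 for the proteasome, 0.65 for glycolytic enzymes, -0.18 for DNA replication, -0.31 for RNA polymerase II, -0.12 for immediate early genes and -0.20 for selenoproteins.

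With no filter on low values, which adds genes to the median of all genes, they were -0.30 for cytosolic and -0.34 for large subunit ribosomal proteins, -0.51 for other initiation factors, 0.0565 for mitochondrial ribosomal proteins, 0.32 for the respiratory chain, -3.40 for MTRNR2L genes, -0.0645 for endoplasmic reticulum chaperones and -0.39 for translocation and glycosylation. They were also 0.62 for the proteasome, 0.15 for lysosomal genes, 0.18 for cholesterol biosynthesis, -0.24 for DNA replication, 0.0049 for immediate early genes, -0.53 for mRNAs with upstream reading frames and -0.0603 for selenoproteins. With a mean of at least 5 TPM they were 0.20 for mitochondrial ribosomal proteins, 0.74 for the proteasome, -0.44 for histones, -0.10 for DNA replication, -0.16 for selenoproteins, -0.027 for mesenchymal genes and 1.22 for epithelial markers. A pseudocount of 5 gave -0.20 for cytosolic and 0.16 for mitochondrial ribosomal proteins, -4.02 for MTRNR2L genes and 0.71 for the proteasome, a pseudocount of 0.1 gave -6.65 for MTRNR2L genes and 1.02 for the proteasome, and size factors gave 1.03 for the proteasome.

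Leaving out 1 library gave -0.13 to 0.26 for cytosolic and -0.20 to 0.26 for large subunit ribosomal proteins, 0.30 to 0.68 for mitochondrial ribosomal proteins, 0.84 to 1.00 for the proteasome and 0.94 to 1.63 for glycolytic enzymes. It gave -0.10 to 0.42 for RNA polymerase II, -0.16 to 0.35 for immediate early genes, 0.0371 to 0.42 for selenoproteins and 0.0694 to 0.57 for epithelial markers. Classes by coding length were not run, because no table of proteins was used here. TPM keep no depth, so the error of low values is unknown.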
